A study of Rattus norvegicus with 6 samples.

Results

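The genes described here make, receive or export lipoproteins, the particles of lipid and protein in which cells pass cholesterol and phospholipid to each other. They are Apoe, which had the highest count of any gene in every library and was chosen by these counts, and 9 genes linked to it, namely Clu, Apod, Abca1, Abcg1, Lrp1, Nr1h2, Nr1h3, Pltp and Scarb1. Each symbol matched 1 row of the deposited table, so the set held 10 of its 32883 genes, and all 10 passed the low-count filter of the test. RNA of the vestibular epithelium of Long-Evans rats was sequenced, with the utricles and cristae of both ears of 1 animal making up each sample. The STREP group held 3 animals given streptomycin, an aminoglycoside antibiotic that damages the sensory hair cells (HCs), as a daily subcutaneous dose of 500 mg/kg that began on postnatal day 21 and went on for 6 weeks. The Control group held 3 animals that received the vehicle, PBS, in the same way. In each group replicates 1 and 2 were males and replicate 3 was a female, so that every value for females rests on 1 animal per group. Values of single animals are given below in the order of replicates 1, 2 and 3. Because whole tissue was used, a lower number of cells of a type cannot be told apart from less RNA per cell.

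Apolipoprotein E is a secreted protein that coats lipoprotein particles and binds receptors on the surface of cells that take the particles up. In nervous tissue it is made mainly by glial cells and by macrophages rather than by neurons. Cholesterol reaches it through the ATP-dependent exporters ABCA1 and ABCG1, whose genes are switched on, like Apoe itself, by the oxysterol-sensing liver X receptors (LXRs), and the particles are taken up through receptors such as LRP1. Such exchange provides membrane lipid for myelin and for repair after injury in other tissues.

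Control libraries held between 48568191 and 59906048 counts and STREP libraries between 29333584 and 33744909, so depth separated the groups, and the labels gave the same batch for all 6. The tissue was checked against marker genes. All 8 HC markers and all 8 supporting cell markers were detected, with summed levels of 1266 to 1609 CPM (counts scaled to the same total in every library) in Control and 1136 to 1368 CPM in STREP animals for HCs, and of 12900 to 14180 and 15740 to 19200 CPM for supporting cells. Transcripts of other cells were present as well. Schwann and satellite glia markers summed to 11270 to 14630 CPM in Control and 7773 to 12170 CPM in STREP animals, and macrophage markers to 82.5 to 137.5 and 89.3 to 157.6 CPM. Fibroblast markers reached at most 514.1 CPM, endothelial and mural markers 332.8, melanocyte markers 812.7, dark cell markers 764.7 and neuron markers 134 CPM in any library. The table therefore does not say which cells made the transcripts described below.

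The promoters of Apoe, Apod and Pltp are shown because these genes followed each other across the 6 animals, as described below. Clu did so too, but no RefSeq promoter was found under its symbol. A part of the promoters in this pattern was not tested. The sequences shown are the 250 bases before the RefSeq transcription start in the rat assembly GRCr8, written 5′ to 3′ on the strand of the gene. The Apoe sequence lies at chr1:88485817-88486066 on the minus strand, that of Apod at chr11:82935970-82936219 on the plus strand and that of Pltp at chr3:174011983-174012232 on the minus strand. Capitals mark the TATA box letters TATAAA, and a promoter without capitals held none of the motifs searched.
Apoe: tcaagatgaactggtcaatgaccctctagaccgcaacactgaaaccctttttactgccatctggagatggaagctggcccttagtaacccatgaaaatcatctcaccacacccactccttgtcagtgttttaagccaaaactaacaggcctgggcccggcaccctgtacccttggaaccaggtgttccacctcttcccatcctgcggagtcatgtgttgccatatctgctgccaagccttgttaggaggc
Apod: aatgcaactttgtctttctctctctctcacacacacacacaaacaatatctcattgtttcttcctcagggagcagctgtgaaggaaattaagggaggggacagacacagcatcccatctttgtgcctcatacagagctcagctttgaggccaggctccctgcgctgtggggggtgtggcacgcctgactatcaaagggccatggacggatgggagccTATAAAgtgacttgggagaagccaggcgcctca
Pltp: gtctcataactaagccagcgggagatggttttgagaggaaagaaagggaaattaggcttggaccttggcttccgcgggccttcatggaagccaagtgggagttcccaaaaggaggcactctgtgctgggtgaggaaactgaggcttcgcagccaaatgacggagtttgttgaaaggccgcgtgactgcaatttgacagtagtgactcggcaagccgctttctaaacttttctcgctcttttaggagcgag

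Of the 10 genes, 7 had a promoter in the RefSeq table. Each was searched on both strands for TATAAA, for the GC box letters GGGCGG, and for AGGTCA, the core letters of many nuclear receptor sites. No match overlapped a match of another motif. TATAAA was found in the promoters of Apod, starting 33 bases before the transcription start, and Abca1, starting 32 bases before it, against 12.9% of all 33469 promoters of the same length. GGGCGG was found in those of Abca1 and Lrp1, against 30.5% of all promoters. AGGTCA occurred in 14.1% of all promoters and in 0 of the 7.

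Apoe was the gene with the most counts in each of the 6 libraries. This is the property it was chosen for, and the values are given without a test. It took 3.28%, 4.33% and 4.14% of all counts in the Control animals, and 3.40%, 2.63% and 4.50% in those of the STREP group. The highest and the lowest share were thus both found in STREP animals. The runner-up was the mitochondrial ribosomal RNA AY172581.24 in 4 libraries and Coch, which encodes the extracellular protein cochlin of the inner ear, in Control replicates 2 and 3. The other genes among the 10 with the highest means were Ptgds, Apod, Otog and the mitochondrially encoded Mt-atp6, Mt-nd1, Mt-cyb and Mt-co1. The counts were not divided by transcript length, so that the rank is one of reads and not of the number of RNA molecules.

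The distance from Apoe to the mitochondrial ribosomal RNA was smaller in STREP animals. Apoe had 1.49, 1.75 and 1.53 times the counts of AY172581.24 in the Control animals. The corresponding ratios were 1.11, 1.09 and 1.09 in those of the STREP group, and the groups did not overlap. The ratios of Apoe to Coch were 1.69, 1.66 and 1.53 in Control and 1.33, 1.56 and 1.54 in STREP animals, with overlap. Of the 99 other genes among the 100 most abundant, 30 (30.3%) gave a ratio to Apoe without overlap, so that the ratio to the ribosomal RNA is 1 of many, and it was singled out after the values were seen. A ratio within a library does not depend on depth or scaling, but it does not say which of the genes differed. In the fit across all genes neither was called, with log2 fold changes of -0.07 for Apoe and 0.47 for the ribosomal RNA (DESeq2 adjusted p = 0.976 and 0.506).

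**Figure D1:**
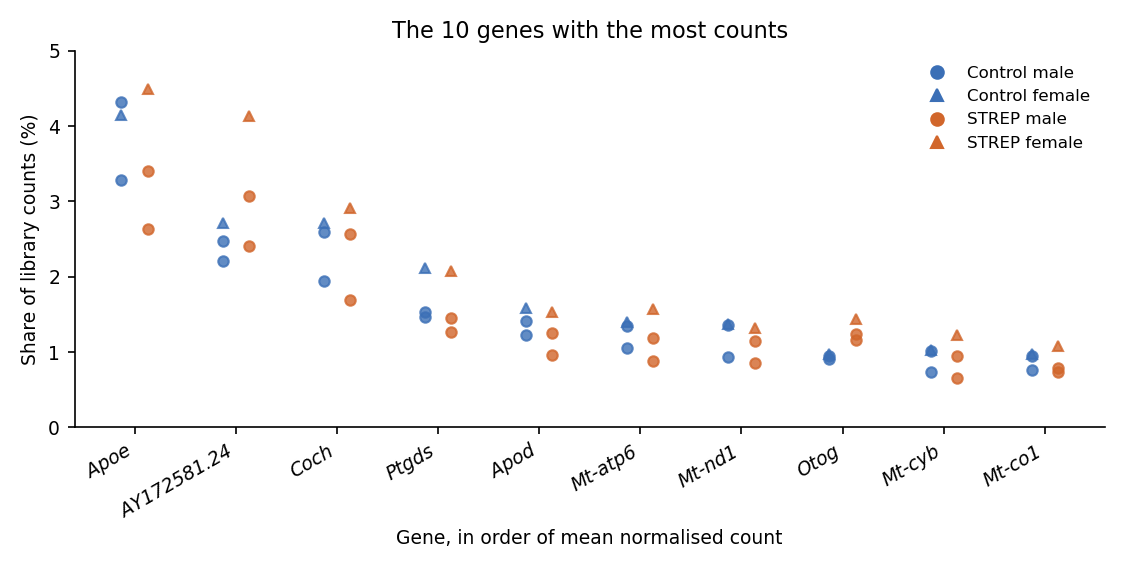
Share of all counts of a library (y axis, %) taken by each of the 10 genes with the highest mean normalised count (x axis). Points are single animals, circles males and triangles females, blue Control and orange STREP. The Apoe points lie between 2.63 and 4.50%, and in every library the Apoe share is the highest of the 10.

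The comparison of Control and STREP animals asks which transcripts change under streptomycin, and 0 of the 10 lipoprotein genes were called. A gene was called when DESeq2 gave an adjusted p-value under 0.05 and a fold change of more than 1.5 in either direction, a rule that 3.24% of the 16250 genes tested met, 1.37% as lower and 1.87% as higher. With no fold threshold the adjusted p-value alone was passed by 3.72% of all genes and again by 0 of these 10. The unadjusted p-value was under 0.05 for 0 of the 10 genes with DESeq2 and for 0 of the 10 with the edgeR quasi-likelihood test, against 12.2% and 11.6% of all genes. Their log2 fold changes ran from -0.30 (Pltp) to 0.34 (Abca1), 5 of them below 0, with a median of 0.02 beside one of 0.0069 for all genes tested. Values of Control and STREP animals did not overlap for 1 of the 10 genes, Scarb1, against 17.8% of all genes tested.

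**Figure D2:**
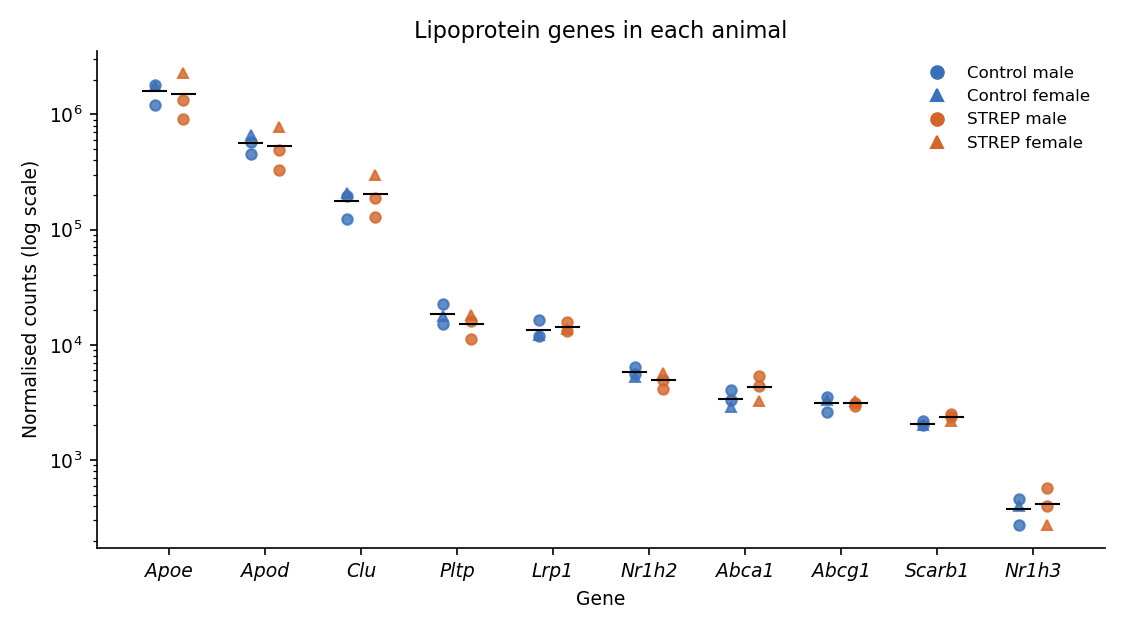
Normalised counts (counts divided by the DESeq2 size factor, y axis, log scale) of the 10 lipoprotein genes (x axis) in each animal. Points are single animals, circles males and triangles females, blue Control and orange STREP, and bars are group means (n = 3). Scarb1 is the gene whose Control and STREP points do not overlap.

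Among the secreted lipid carriers, Apoe had 1207000, 1786300 and 1745100 normalised counts in the Control animals. In those of the STREP group it had 1327800, 902880 and 2268900. The STREP values lay on both sides of all Control values, with the lowest in a male and the highest in the female. Group means were 1579500 ± 323200 and 1499900 ± 699100 (SD, n = 3), and the log2 fold change was -0.07 ± 0.27 (SE, DESeq2 adjusted p = 0.976). The 95% Wald interval of the fold change ran from 0.657 to 1.37, so that these data do not exclude changes within these bounds. The share of counts taken by Apoe was 3.92 ± 0.557% for the Control and 3.51 ± 0.938% for the STREP group (mean ± SD of 3 animals). An exact permutation test, two-sided, gave p = 0.7, where 0.1 is the smallest this design allows.

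The spread of Apoe between animals was above the median of abundant genes but was not unusual among the most abundant of them. Its coefficient of variation (SD over mean) was 20.5% in Control and 46.6% in STREP animals. The medians over the 100 most abundant genes were 16.1% and 36.2%, and those over all 12131 genes with a mean of at least 100 normalised counts were 12.8% and 14.3%. Abundant genes as a group therefore varied more than others among STREP animals. Of the top 100 genes, Apoe included, 15 varied at least as much as Apoe among STREP animals and 22 among Control animals. Among the 10 genes with the highest means, Ptgds, Mt-atp6 and Mt-cyb varied more than Apoe in both groups, and Apod, Otog and Mt-co1 varied less in both.

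Apod encodes apolipoprotein D, a lipocalin that binds small lipids such as arachidonic acid and is found in glia and fibroblasts. It was the gene with the fifth or sixth highest count in every library. It had 451960, 580510 and 668140 normalised counts in the Control animals, and 490600, 327840 and 775150 in those of the STREP group. As for Apoe, the STREP male of replicate 2 was the lowest and the STREP female the highest of all 6 animals, and the groups overlapped (log2 fold change -0.09 ± 0.26, DESeq2 adjusted p = 0.969).

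Clu encodes clusterin, also called apolipoprotein J, a secreted chaperone that also travels on lipoprotein particles. It had 123250, 197170 and 207330 normalised counts in the Control animals, and 187490, 128850 and 295270 in those of the STREP group. The STREP female was again the highest, the lowest value belonged to Control replicate 1, and the groups overlapped (log2 fold change 0.21 ± 0.27, DESeq2 adjusted p = 0.882). Its interval of the fold change, from 0.806 to 1.67, includes changes larger than the 1.5-fold threshold.

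Pltp encodes the phospholipid transfer protein, which moves phospholipid between lipoprotein particles. Its values were 15244, 22559 and 17862 normalised counts in the Control animals and 15955, 11208 and 18111 in those of the STREP group. The lowest animal was the same as for Apoe and Apod, whereas the highest was Control replicate 2. The difference did not pass the test (log2 fold change -0.30 ± 0.20, DESeq2 adjusted p = 0.638).

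On normalised counts, the 4 secreted carriers varied together between animals within both groups. Relative to its Control mean, Apoe stood at 0.572 in STREP replicate 2, 0.764 in Control replicate 1, 0.841 in STREP replicate 1 and 1.44 in STREP replicate 3. Apod stood at 0.578, 0.797, 0.865 and 1.37 and Clu at 0.732, 0.701, 1.07 and 1.68 in the same animals. Pltp stood at 0.604, 0.822 and 0.860 in the first 3 of these and at 0.976 in STREP replicate 3. STREP replicates 1 and 2 and Control replicate 1 were the 3 lowest animals for each of the 4 genes. In CPM this did not hold for Pltp. Among STREP animals Pltp was then highest in replicate 1 (408.5 CPM) and Apoe in replicate 3 (44948 CPM). Pearson's r with Apoe over the 6 libraries, on log2(normalised count + 1), was 0.984 for Apod, 0.914 for Clu and 0.843 for Pltp, and on log2(CPM + 1), a scale added after the data had been seen, it was 0.955, 0.780 and 0.550. These are descriptions, since all genes of a library share its depth and composition.

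**Figure D3:**
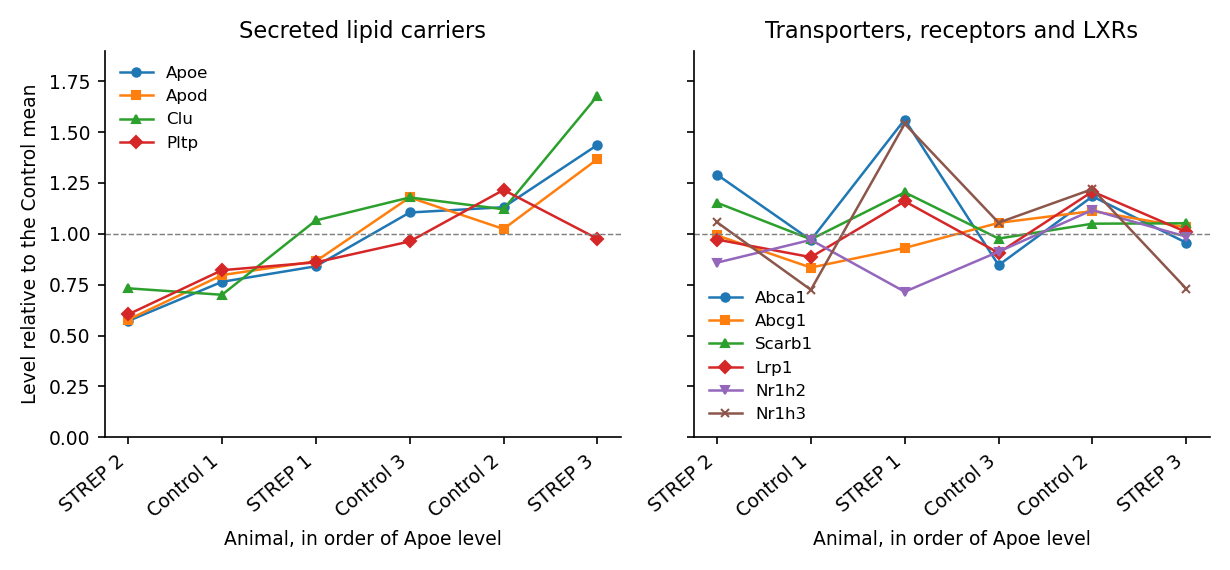
Normalised counts relative to the Control mean of each gene (y axis), with the 6 animals ordered by their Apoe level (x axis). The left panel shows the secreted carriers, which are lowest in STREP replicate 2, Control replicate 1 and STREP replicate 1, and the right panel the other 6 genes, among which Abca1 and Nr1h3 are highest in STREP replicate 1, at 1.56 and 1.54.

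Other features of the libraries moved with the same animals. The 9 genes that followed Apoe in mean count together took 10.7% of counts in STREP replicate 2 and 11.2% in Control replicate 1, and 17.3% in STREP replicate 3. Mitochondrially encoded genes took 7.27%, 7.43% and 11.9% of counts in these 3 libraries. These shares are not separate features, since the 9 genes include Apod and several mitochondrially encoded genes. Schwann and satellite glia markers, all 8 of them detected, had their lowest sums, 7773 and 11270 CPM, in the same STREP replicate 2 and Control replicate 1, and their highest, 14630 CPM, in Control replicate 2. The largest part of each sum was S100b, the gene most like Apoe below, at 3936 CPM in STREP replicate 2 and 7207 CPM in STREP replicate 3. Other markers of the list did not all follow it. Mag was lowest in STREP replicate 3 (11.6 CPM) and Sox10 in Control replicate 2 (95.1 CPM). Of the 8 markers 7 had log2 fold changes below 0, whereas Sox10 was called as higher (0.95, DESeq2 adjusted p = 0.000104). The part of these markers in the pattern of Apoe was not tested.

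Of 12130 genes with a mean of at least 100 normalised counts, the 5 that followed Apoe most closely across the 6 libraries were S100b, Pigf, Myo9a, Plekhb1 and Psme1, with Pearson's r from 0.993 to 0.998. S100b, which encodes a calcium-binding protein of glia and of supporting cells, had 176950, 272600 and 265590 normalised counts in the Control animals and 194780, 135210 and 363800 in those of the STREP group. The order of the animals was the same as for Apoe. On log2(CPM + 1), S100b and Plekhb1 remained the closest (r = 0.994 and 0.983). Pigf fell to r = 0.068, Myo9a to -0.62 and Psme1 to -0.56, so that the likeness of these 3 to Apoe rests on the scaling. Apod ranked 21st, Clu 253rd and Pltp 576th by this measure on normalised counts, so that the pattern was not particular to the secreted carriers.

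Cholesterol exporters gave smaller numbers and less spread than the apolipoproteins. Abca1, whose product loads cholesterol and phospholipid onto lipid-poor apolipoproteins, had 3303, 4035 and 2883 normalised counts in the Control animals. It had 5322, 4398 and 3258 in those of the STREP group. Both STREP males were above all Control animals and the STREP female was not. The log2 fold change of 0.34 ± 0.20 was the largest of the 10 in size and had the smallest p-value, and it did not pass the test (DESeq2 adjusted p = 0.532, interval of the fold change 0.964 to 1.67). Abcg1, which passes cholesterol on to particles that already carry lipid, had a mean of 3154 ± 461.5 normalised counts without and 3106 ± 160.2 with streptomycin (SD, n = 3), and its log2 difference was -0.02 ± 0.16 (DESeq2 adjusted p = 0.989). Its fold change had an interval of 0.798 to 1.22.

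Neither receptor among the 10 genes passed the test. Lrp1 encodes a large endocytic receptor that takes up particles carrying apolipoprotein E. It had 11960, 16317 and 12245 normalised counts in the Control animals and 15669, 13129 and 13634 in those of the STREP group, and all STREP values lay within the Control range (log2 fold change 0.07 ± 0.16, DESeq2 adjusted p = 0.963, 95% interval -0.25 to 0.38 on the log2 scale). Scarb1 encodes the scavenger receptor SR-BI, which takes cholesteryl ester from high-density lipoprotein. It had 2012, 2171 and 2020 normalised counts in the Control animals and 2490, 2385 and 2175 in those of the STREP group. All 3 STREP animals were above all 3 Control animals, but Control replicate 2 and STREP replicate 3 were close together. The log2 fold change was 0.18 ± 0.14 (DESeq2 adjusted p = 0.689). As a share of all counts the groups did overlap, since Scarb1 took 0.00431% of counts in STREP replicate 3 and 0.00479 to 0.00547% in Control animals.

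Both LXRs were present. Nr1h2, which encodes the widely expressed LXR beta, had 5591, 6439 and 5257 normalised counts in the Control animals and 4123, 4947 and 5683 in those of the STREP group. The STREP males were below and the STREP female within the Control range (log2 fold change -0.23 ± 0.16, DESeq2 adjusted p = 0.667). Nr1h3, which encodes LXR alpha, the form of liver, fat and macrophages, had 271.9, 457.4 and 395.6 normalised counts in the Control animals. In those of the STREP group it had 577.8, 396.2 and 273.8, so that both groups spanned a similar range (log2 fold change 0.15 ± 0.32, DESeq2 adjusted p = 0.952). The interval of its fold change, from 0.722 to 1.71, was the widest of the 10 genes.

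For 6 of the 10 genes, the male means and the single pair of females differed in opposite directions. Apoe averaged 1496600 normalised counts in Control males and 1115300 in STREP males, a log2 difference of -0.42, whereas the females had 1745100 and 2268900, a difference of 0.38. Apod (-0.34 in males, 0.21 in females), Clu (-0.02 and 0.51), Pltp (-0.48 and 0.02) and Nr1h2 (-0.41 and 0.11) went the same way as Apoe, and Nr1h3 the other way (0.42 and -0.53). The interaction of sex and treatment had an unadjusted p-value under 0.05 for Apoe alone among the 10 (0.0268), against 5.15% of all genes, with a female-minus-male difference of 0.80 ± 0.36 on the log2 scale, and the adjusted p-value was 0.807 (DESeq2). With 1 female per group, a difference of sex cannot be told apart from one between animals.

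**Figure D4:**
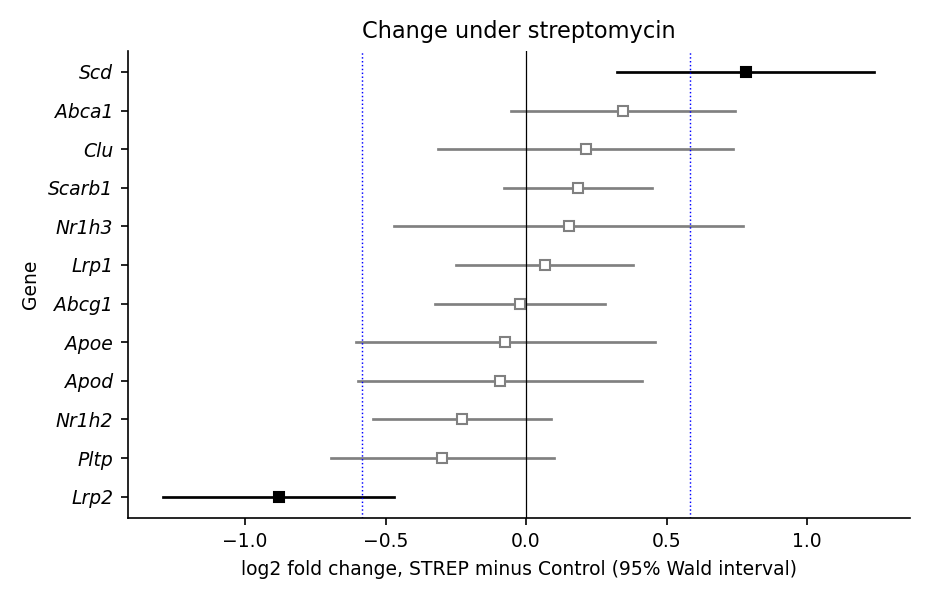
Log2 fold change, STREP minus Control (x axis), of the 10 lipoprotein genes and of Lrp2 and Scd (y axis), from DESeq2 with 3 animals per group. Squares are estimates, lines 95% Wald intervals and dotted lines the 1.5-fold threshold. Filled squares, Lrp2 at -0.88 and Scd at 0.78, are called, and the intervals of all 10 lipoprotein genes include 0.

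Other genes of lipoprotein handling were taken from 6 lists of apolipoproteins, receptors, transporters, enzymes and regulators. The lists name 64 genes, 4 of them in more than 1 list. Of these, 61 were in the table and 54 were tested, of which 2 (3.70%, against 3.24% of all genes) were called, Lrp2 as lower and Scd as higher in STREP animals. The median log2 fold change of the 54 genes was -0.03. Values did not overlap between groups for 13 of the 54 (24.1%, against 17.8% of all genes). The edgeR quasi-likelihood test called 0 of the 50 genes it tested, with an unadjusted p-value under 0.05 for 11 of them (22.0%, against 11.6% of all genes). With DESeq2 it was under 0.05 for 12 of the 54 (22.2%, against 12.2% of all genes).

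Lrp2 encodes megalin, an endocytic receptor of absorptive epithelia that binds lipoproteins and is known to bind aminoglycosides in the kidney. It fell from 51167, 34237 and 40320 normalised counts in the Control animals to 24551, 27483 and 16287 in those of the STREP group. Every STREP animal was below every Control animal, and the log2 fold change was -0.88 ± 0.21 (DESeq2 adjusted p = 0.00167). With edgeR and a count filter the estimate was of the same size, without a call (-0.88, adjusted p = 0.130), and the call was lost without Control replicate 1 (-0.72, DESeq2 adjusted p = 0.0598). Markers of dark cells, the ion-transporting cells at the border of the sensory epithelium, summed to less in the STREP animals. Of 5 such markers 4 had log2 fold changes below 0 and 0 were called, with an unadjusted p-value under 0.05 for 2 with DESeq2 and for 1 with edgeR. Among them Slc12a2 passed on the adjusted p-value but not on fold change (-0.55, DESeq2 adjusted p = 0.00350). Their summed level ran from 672.6 to 764.7 CPM in Control and from 333.9 to 637.9 CPM in STREP animals, and none was at 0. The part of this difference in the value of Lrp2 was not tested.

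Scd encodes stearoyl-CoA desaturase, which makes monounsaturated fatty acids and is a target of LXR and of the sterol regulatory factor SREBP1. It rose from 7822, 6919 and 13572 normalised counts in the Control animals to 19120, 14709 and 14839 in those of the STREP group. The groups did not overlap, although the Control female was close to the lower STREP values (log2 fold change 0.78 ± 0.23, DESeq2 adjusted p = 0.0271). The summed markers of supporting cells were also higher in STREP animals without overlap, most of the sum being Otog, and 6 of these 8 markers had log2 fold changes above 0 with 0 called (an unadjusted p-value under 0.05 for 2 with DESeq2 and for 0 with edgeR). The melanocyte sum, 658.3 to 768.9 CPM in Control and 792 to 812.7 CPM in STREP animals, was nearly all Pmel, and the other 4 of its 5 markers had log2 fold changes below 0, from -1.25 to -0.06. The part of either list in the value of Scd was not tested. The call was not made by edgeR with a count filter (0.78, adjusted p = 0.202), and it was lost without Control replicate 1 (0.66), Control replicate 2 (0.60), STREP replicate 1 (0.65), STREP replicate 2 (0.85) or STREP replicate 3 (0.84). It was kept without Control replicate 3, the female (1.14, DESeq2 adjusted p = 7.17e-08). A fit of the 4 males kept it as well (DESeq2 adjusted p = 1.58e-09). Of the 8 other LXR targets in the table, Scd was the 1 called, and the list had a median log2 fold change of 0.19. Srebf1, the most abundant of them, had 29414 ± 1553 normalised counts without and 35440 ± 10690 with streptomycin (SD, n = 3, log2 fold change 0.27, DESeq2 adjusted p = 0.703). Its log2 fold change was 0.05 without STREP replicate 3 and 0.48 without STREP replicate 2, where the adjusted p-value was 0.0304 but the fold change stayed under the threshold (DESeq2).

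Apolipoproteins of blood plasma were nearly absent beside Apoe, Apod and Clu. The 12 listed genes, among them Apoa1 and Apob, summed to between 1.63 and 3.38 CPM in any library. The highest of them, Apoc1, had 34.4 ± 10.2 normalised counts without and 30.6 ± 7.38 with streptomycin (SD, n = 3), and a further row with the symbol Apoc1 held counts in a single library. Of these 12 genes 7 were tested and 0 called, with an unadjusted p-value under 0.05 for 1 with DESeq2 and for 0 with edgeR, and their median log2 fold change was -0.07.

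Of 11 other receptors and partners in the table, 1 was called, Lrp2, which was also the most abundant. The median log2 fold change was -0.02.

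Among 11 other ABC transporters 0 were called, with an unadjusted p-value under 0.05 for 3 with DESeq2 and for 2 with edgeR and a median log2 fold change of -0.15. Abca2, a transporter of myelinating glia and the most abundant of these, had log2 fold change 0.02 (DESeq2 adjusted p = 0.990). Of 14 lipases and enzymes or carriers of intracellular sterol that were tested 0 were called, with an unadjusted p-value under 0.05 for 2 with DESeq2 and for 3 with edgeR and a median of 0.03. Npc2, which hands cholesterol out of lysosomes, was the most abundant, at 10610 ± 828.1 normalised counts without and 11676 ± 2849 with streptomycin (SD, n = 3, log2 fold change 0.14, DESeq2 adjusted p = 0.889). Of the 7 RXRs, PPARs and related nuclear receptors 0 were called, with an unadjusted p-value under 0.05 for 1 with each tool and a median of -0.18. The most abundant, Rxrb, had log2 fold change 0.02 (DESeq2 adjusted p = 0.992).

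**Figure D5:**
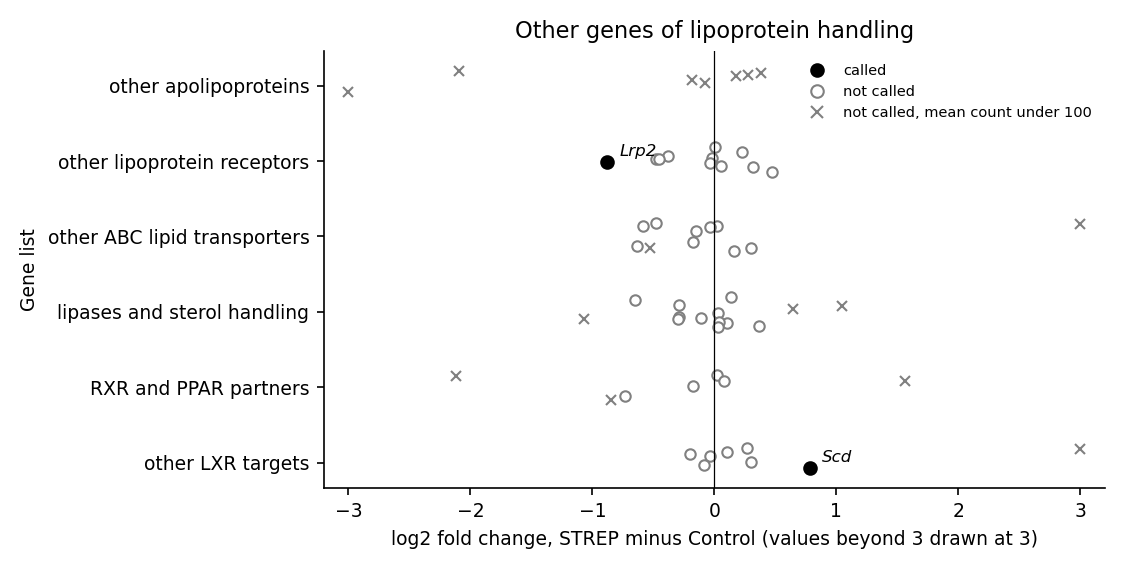
Log2 fold change, STREP minus Control (x axis), of the tested genes in 6 lists of lipoprotein handling (y axis). Points are genes, filled where called, open where not, and crosses where not called with a mean under 100 normalised counts. Lrp2 and Scd are the 2 called genes, and the marks at 3 and -3 stand for genes, among them 1 drawn in each of its 2 lists, with 0 counts in every library of 1 group and no interpretable fold change.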

How the data were processed

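RNA from 3 Control and 3 STREP rats was made into SMARTseq2 libraries, which prime at the poly(A) tail and amplify by PCR. The authors aligned reads to Rnor6.0 with STAR 2.5.3a and, per the labels, quantified genes with RSEM 1.3.0, and they deposited expected counts per gene, 0 of which were not whole numbers. Expected counts divide reads among similar genes. Groups came from the sample labels, and replicates were numbered in order of deposition. The titles of STREP replicates 1 and 2 share a code whose meaning the labels do not give. No pair of libraries agreed within sampling noise, and separate libraries of 1 animal would also differ beyond it. This pair had the lowest chi-square per degree of freedom (51.0). That measure grows with depth, and these libraries had the fewest counts (29333584 and 31814684). Pearson's r of this pair on log2(normalised count + 1) was 0.9458. It was 0.954 for STREP replicates 1 and 3, 0.9418 for STREP replicates 2 and 3, and 0.953 to 0.9579 between Control animals. STREP replicates 1 and 2 were treated as 2 animals, as the study describes. If they were not, the STREP group would hold 2 animals and the p-values would be too small.

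All genes were fitted with DESeq2 1.42.0 in R 4.3.3, as in the study, by Wald tests of STREP against Control with its median-of-ratios scaling and Benjamini-Hochberg adjustment. Calls needed an adjusted p-value under 0.05 and a fold change over 1.5. The procedure was tested on simulated counts. The DESeq2 p-values set the difference between groups against the spread between these 6 animals, which is estimated with information from all genes. The detection floor of 3 counts was 0.0501 to 0.102 CPM and covers counting error only. Alternatives were edgeR 4.0.16, other scalings, filters, sex as a covariate, males alone, thinning to equal depth, and leaving out each animal. Genes named were the 10 lipoprotein genes, the called and the most abundant gene of each list, the 10 most abundant genes and the 5 most like Apoe. The genes, lists and tests were chosen with earlier results of these data known. Promoters were taken from RefSeq by symbol. Their assembly, GRCr8, is not that of the counts. Some genes of the lists are counted but not reported singly here.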

Additional observations from a re-analysis of the deposited data

How the results depend on the processing

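None of the 10 lipoprotein genes was called under any alternative or with any animal left out. Over other settings the log2 fold change of Apoe ran from -0.43 (males alone) to -0.07, with adjusted p-values from 0.480 to 0.999, and its share of counts differed by -0.41 percentage points, by -0.41 outside mitochondrial genes and by -0.79 among males. With each animal left out, the share differed by between -0.90 and 0.030 percentage points, and the log2 fold change of Apoe ran from -0.50 (without STREP replicate 3) to 0.18 (without STREP replicate 2), of Apod from -0.47 to 0.16, of Clu from -0.15 to 0.45, of Abcg1 from -0.14 to 0.060, of Lrp1 from -0.018 to 0.22, of Nr1h3 from -0.16 to 0.38, of Apoc1 from -0.39 to 0.085, of Abca2 from -0.068 to 0.15, of Npc2 from -0.076 to 0.26 and of Rxrb from -0.11 to 0.11, so that these 10 genes had no stable direction. Abca1, Nr1h2, Pltp and Scarb1 kept theirs in every fit. Among males alone Clu (-0.021) and Npc2 (-0.021) changed sign. Over all genes, 264 were called by edgeR with a count filter, 295 by edgeR without it and 309 with library totals as size factors, against 527, and in these 3 fits 0 other genes of lipoprotein handling were called, against 2. With each animal left out, between 0 (without Control replicate 1) and 3 (without STREP replicate 2) were called, and 1 without STREP replicate 3. The genes called in addition to Lrp2 or Scd were Pparg without Control replicate 2, Angptl4 without STREP replicate 1, and Abcd2 and Nr1h4 without STREP replicate 2. The cause was not tested. No paired analysis was possible because the labels give no replicate numbers shared by the groups. Precision was limited by 3 animals per group, and for plasma apolipoproteins by low counts.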
